A study of Mus musculus with 12 samples.

Results

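The genes of inhibin and activin signaling were examined in RNA sequencing of whole mouse testis. They were the subunits of the hormones (Inha, Inhba and Inhbb), the receptors (Acvr2a, Acvr2b, Acvr1b and Acvr1), the binding protein follistatin (Fst), the inhibin co-receptor betaglycan (Tgfbr3) and the receptor for anti-Müllerian hormone (Amhr2). Members were chosen by gene symbol, and every assembled transcript carrying such a symbol and classed as equal to, contained in, sharing a junction with or otherwise overlapping a reference transcript on the same strand was kept. This gave 10 genes with 28 transcripts, of 24516 genes with a symbol and 71967 transcripts in all. The 12 samples were whole testes of wild type C57BL/6 mice, 3 mice at each of postnatal month 3 (3M), 6 (6M), 12 (12M) and 18 (18M). The mice carried no transgene or treatment, and whether animals of an age came from the same litter was not known to the study. The study asked how the testis transcriptome changes as the mouse ages.

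Inhibins and activins belong to the TGF-β superfamily and are dimers built from shared subunits. An α subunit (Inha) joined to a β subunit (Inhba or Inhbb) makes an inhibin, and a pair of β subunits makes an activin. Activins bind a type II receptor (Acvr2a or Acvr2b), which recruits and phosphorylates a type I receptor such as Acvr1b, and the signal passes to SMAD proteins. Inhibin binds type II receptors together with betaglycan and so competes with activin, while follistatin binds activin outside the cell. In the adult testis Sertoli cells are the main source of inhibin B, the dimer of Inha and Inhbb products, which lowers the release of follicle-stimulating hormone from the pituitary.

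Libraries held between 50924104 and 71803379 counts, of which the 10 genes took 14685 to 21210, or 274 to 351 counts per 1000000 (CPM). Within an age, libraries correlated at 0.975 to 0.979. Markers of the tissue were present in every library: the summed level of 10 Sertoli cell markers ran from 229 to 335 FPKM (fragments per kilobase of transcript per 1000000 fragments), and that of 8 Leydig cell markers from 704 to 1717 FPKM. The sum of 6 epididymis markers stayed at or under 0.567 FPKM, with Lcn5 and Adam7 listed at 0 throughout. Library 6M-3 held the highest sums of both the Sertoli and the Leydig list.

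Sequences are shown at the places where the deposited transcript models of these genes differ. The pair of Acvr2b transcripts, NM_007397 and NM_001313757, differ only by a segment of 72 nt, which is 24 codons of coding sequence in the longer form. It lies at chr9:119428353-119428424 on the plus strand (mm10) and is printed in capitals with 24 nt on each side, so that the run covers chr9:119428329-119428448. The segment begins with GT and ends with AG, the letters found at the ends of most introns.

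Acvr2b segment: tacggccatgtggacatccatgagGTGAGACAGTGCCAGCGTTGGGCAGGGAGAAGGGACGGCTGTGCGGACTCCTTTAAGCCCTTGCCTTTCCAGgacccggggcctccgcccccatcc

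For Amhr2, the most abundant member, several assembled transcripts continued upstream across the annotated start. The 250 bases before that start are given from RefSeq (GRCm38.p6, plus strand, chr15:102445117-102445366), because reads were found in this stretch. Capitals mark AAGGTCA, the half-site recognised by the nuclear receptor Nr5a1 and its relatives, which begins 231 bases before the start.

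Amhr2 promoter: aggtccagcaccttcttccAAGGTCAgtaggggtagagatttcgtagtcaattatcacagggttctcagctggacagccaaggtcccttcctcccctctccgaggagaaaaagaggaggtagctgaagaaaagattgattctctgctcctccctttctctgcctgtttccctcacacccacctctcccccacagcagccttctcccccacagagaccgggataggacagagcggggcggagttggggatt

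Searched on both strands of promoter windows reaching from 250 bases before to 50 after the start, AAGGTCA was present in 4.72% of 32851 windows and, of the 8 members with a window in the table, in Amhr2. The cyclic AMP response element TGACGTCA was present in 1.79% of windows and the GATA motif AGATAA in 11.2%, and neither was found in a window of the 8 members. Fst and Tgfbr3 had no window. The Inha window was placed at the start of NM_001329843 (75507609), downstream of the start of NM_010564 (75507077), the main Inha form. The bases before the start of NM_010564 were therefore not searched. The motifs do not overlap each other. These matches describe letters in a window and were not tested for binding.

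Levels between genes were compared per length, as reads on the exons of a gene's own RefSeq transcripts per kilobase of exon per 1000000 counts. On this scale the order was set by the hormone receptor Amhr2 with a mean of 69.6 over the 12 libraries (lowest 64.2, highest 84.7) and Inha with 22.4 (19.3 to 31.7). The next 3 genes lay close together: Acvr1b had 6.14 (5.17 to 7.36), Inhbb 5.77 (5.04 to 6.52) and Acvr2a 5.19 (4.68 to 6.03). Their ranges overlapped, with Acvr1b above Inhbb in 8 of 12 libraries and Inhbb above Acvr2a in 12 of 12. Tgfbr3 followed at 2.58 (1.94 to 3.12). Acvr1 at 0.999 (0.789 to 1.2) and Acvr2b at 0.836 (0.757 to 0.958) again overlapped, with Acvr1 the higher in 10 of 12 libraries. Fst at 0.199 (0.123 to 0.363) and Inhba at 0.0324 (0.00541 to 0.0615) closed the order. The ranges of the other neighbours in the order did not overlap. By mean summed FPKM, Amhr2 (36.6) and Inha (32.8) lay closer together than per length of exon. They stood at percentiles 89.7 and 88.9 of 22685 genes with any count, while Fst and Inhba stood at percentiles 25.2 and 12.2.

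**Figure D1:**
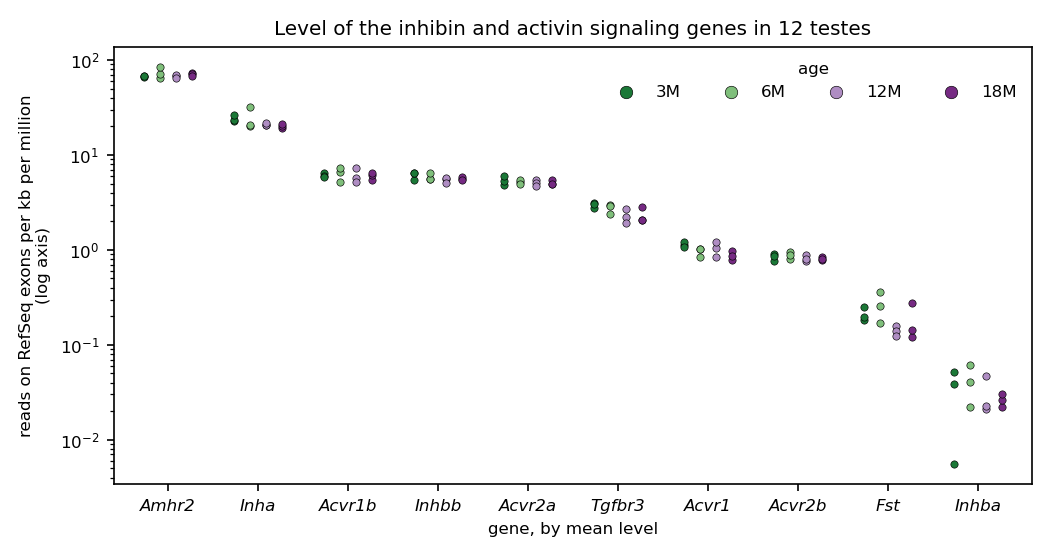
Reads on RefSeq exons per kilobase per 1000000 counts (log axis) for the 10 genes, ordered by their mean over the 12 libraries, with a point for each mouse. Amhr2 and Inha stand above every other gene in all libraries, and Inhba lies below all others, with a mean of 0.0324.

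Of the β subunits, the testis libraries held Inhbb, with Inhba close to absent. Inhbb (chromosome 1, 119415465 to 119422248, minus strand) received 1207 to 1674 reads a library on its exons, and Inhba (chromosome 13, 16011851 to 16031621, plus strand) received 2 to 20. The first 2 exons of Inhba had no read in any of the 12 libraries, which for a library allows up to 3 reads by counting error alone. Per length, Inhbb was a median of 199 times as high as Inhba, with a lowest value of 90.4 and a highest of 1196. That highest value came from 3M-3, the library with the fewest Inhba reads. Over Inhbb, depth was uneven: the last exon (2635 nt) was covered 40.6 to 59.0 times and the first (1622 nt) 5.07 to 12.5 times.

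The α subunit exceeded the β subunit in every library. Inha (chromosome 1, 75507077 to 75510366, plus strand) was per length 3.44 to 4.86 times as high as Inhbb, with a median of 3.67. This ratio averaged 3.98 ± 0.298 in the 3M mice and 4.05 ± 0.704 in the 6M mice (mean ± SD, n = 3 for each age). It averaged 3.86 ± 0.411 in the 12M mice and 3.60 ± 0.229 in the 18M mice. The values of 3M and 18M overlapped, and no test was run on the ratio.

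Within each pair of receptors compared, the same gene was the higher in every library. Of the type II receptors, Acvr2a was 5.38 to 7.15 times as high per length as Acvr2b (median 6.09). Of the type I receptors, Acvr1b, the main partner of activin, was 4.36 to 8.72 times as high as Acvr1, a type I receptor mostly used by bone morphogenetic proteins (median 5.64). Amhr2, the type II receptor of anti-Müllerian hormone, was 11.2 to 17.3 times as high as Acvr2a (median 13.4). Inhbb was 18.0 to 44.8 times as high as the antagonist Fst (median 32.7), and 20 to 58 reads a library fell on Fst exons.

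To ask whether these levels changed with age, counts were summed per gene, normalized by the trimmed mean of M values and tested with edgeR's quasi-likelihood test with Benjamini-Hochberg adjustment over all genes tested. A steady change with age was tested as a slope (log2 per month), the youngest and oldest mice were compared directly, and any difference among the 4 ages was tested without an order. No member passed an adjusted p of 0.05 in any of these tests. Calls were rare among all genes too: 0.0787% of 29233 for the slope, 0.0497% of 28158 for 3M against 18M (which also asked for a log2 change of at least 1 in size), and 0.0582% of 29233 for any age. With DESeq2, 2.50%, 0.493% and 2.07% of genes were called, and none of the 10. For the slope and for 3M against 18M, DESeq2 gave Inhba and Fst no adjusted p, so they could not be called there. Inha had a DESeq2 adjusted p of 0.0134 for 3M against 18M and was left uncalled by the fold rule alone.

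Inha, the α subunit, had lower values in most of the older testes but was not called. Its normalized CPM were 53.9, 54.8 and 61.5 at 3M, 46.9, 49.0 and 72.9 at 6M, 48.3, 48.8 and 50.1 at 12M, and 45.2, 46.7 and 49.5 at 18M. On this scale all mice of 12M and 18M lay below all mice of 3M, while the highest value of the series was from 6M-3. In 3M-3 the value includes a first-exon segment (75507173 to 75507518) at depth 175, beside 4.91 to 21.6 in the other libraries. On the last exon, shared by all Inha forms, 12M-3 (depth 285, 62179449 library counts) stood above 3M-3 (261, 57957440) relative to counts. Depth there, scaled as CPM, averaged 4.75 ± 0.204 at 3M and 5.07 ± 1.39 at 6M (mean ± SD). It averaged 4.42 ± 0.144 at 12M and 4.29 ± 0.158 at 18M. The log2 change of the gene sum from 3M to 18M was -0.27 ± 0.07 (SE), with an adjusted p of 0.432 (edgeR). DESeq2 gave the same change an adjusted p of 0.0134, still under the fold required for a call. Counting only transcripts equal to a reference turned the change to 0.02, since 1792 counts of 3M-3 were assigned to a joined transcript described further on. The slope was -0.020 ± 0.008 log2 per month (adjusted p = 0.328, edgeR). Without 6M-3 it was -0.015 (adjusted p = 0.255, edgeR).

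Markers of the somatic cells are given beside Inha. The summed level of the Leydig markers spanned 1018 to 1176 FPKM in the 3M mice, 940 to 1717 in the 6M mice, 771 to 826 in the 12M mice and 704 to 975 in the 18M mice, and 7 of its 8 genes had a slope below 0 at an unadjusted p of 0.05. Of these, the steroid enzymes Cyp17a1 (-0.099 per month, adjusted p = 4.08e-04) and Cyp11a1 (-0.108, adjusted p = 0.0145) were called by edgeR. None of its genes was at 0. The Sertoli list spanned 246 to 271 FPKM in the 3M mice, 250 to 335 in the 6M mice, 241 to 264 in the 12M mice and 229 to 282 in the 18M mice, with 0 of 10 genes past that p and none at 0. In 6M-3, the normalized CPM of Inha and Amhr2 and both marker sums were at their highest. Of the Leydig list, Insl3 (937 normalized CPM), Hsd3b6 and Hsd17b3 were highest in that library. Cyp11a1, Cyp17a1, Star and Lhcgr were instead highest in 3M-2, and Hsd3b1 in 18M-1. The part of cell makeup in the Inha values was not tested, and in whole tissue fewer cells of a type and less RNA per cell cannot be told apart.

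Inhbb, the β subunit of inhibin B, showed a smaller difference. Its normalized CPM were 23.2, 27.3 and 27.8 at 3M, 23.7, 24.2 and 27.3 at 6M, 24.1, 24.8 and 21.1 at 12M, and 23.6, 24.7 and 23.4 at 18M. The youngest and oldest mice overlapped through 3M-1. The log2 change was -0.13 ± 0.08 (adjusted p = 0.619) and the slope -0.009 ± 0.005 per month (adjusted p = 0.480, edgeR). Inhba, with 0.0522 to 0.393 normalized CPM, had a log2 change of -0.33 ± 0.66 and is too shallow here to show a difference of that size.

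Tgfbr3, the betaglycan that lets inhibin occupy activin's type II receptors, was lower on average in the older groups but not in each mouse. Its normalized CPM were 16.8, 19.3 and 19.3 at 3M, 15.1, 18.6 and 17.5 at 6M, 13.8, 17.2 and 11.9 at 12M, and 17.7, 13.0 and 12.8 at 18M. The oldest group overlapped the youngest through 18M-1. The slope was -0.025 ± 0.010 per month (adjusted p = 0.314) and the log2 change from 3M to 18M was -0.35 ± 0.15 (adjusted p = 0.482, edgeR). Leaving out 18M-1 gave a slope of -0.036 (adjusted p = 0.131, edgeR) and a log2 change of -0.52.

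Acvr1 was the other gene whose oldest mice all lay below the youngest. Its normalized CPM were 3.73, 3.94 and 3.62 at 3M, 2.77, 3.36 and 3.31 at 6M, 3.52, 2.83 and 3.92 at 12M, and 3.25, 2.60 and 2.86 at 18M. The 12M group spanned nearly the whole range. The log2 change was -0.37 ± 0.12 (adjusted p = 0.436, edgeR), on 137 to 246 exon reads a library.

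Acvr2a, the higher of the pair of activin type II receptors, had normalized CPM of 27.5, 30.4 and 34.6 at 3M, 29.4, 31.1 and 27.3 at 6M, 31.6, 29.2 and 26.1 at 12M, and 28.0, 30.9 and 28.4 at 18M, and the groups overlapped. Its log2 change from 3M to 18M was -0.08 ± 0.10, that of Acvr2b was -0.06 ± 0.09 and that of Acvr1b was -0.03 ± 0.17. Amhr2 had 151, 135 and 138 normalized CPM at 3M, 132, 151 and 169 at 6M, 140, 142 and 130 at 12M, and 160, 141 and 145 at 18M. Its groups overlapped, and its log2 change of 0.07 ± 0.06 was the only member estimate above 0. Fst ranged from 0.364 to 1.04 normalized CPM and had a log2 change of -0.20 ± 0.36, which was -0.60 without 18M-2 and 0.00 without 18M-1.

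**Figure D2:**
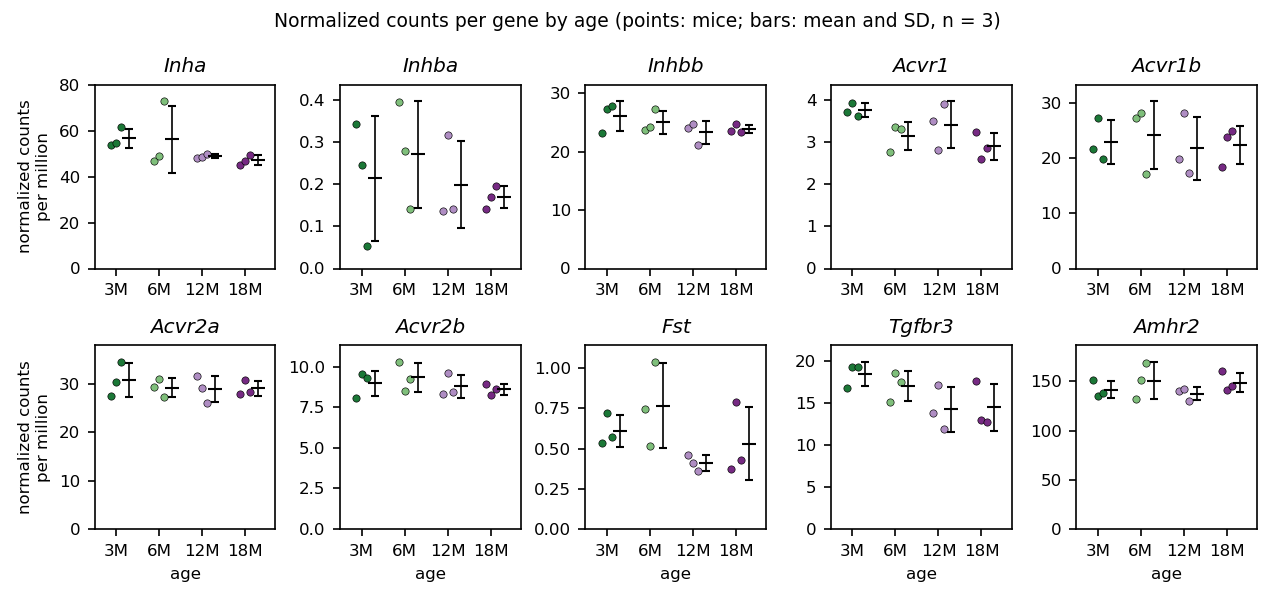
Normalized CPM for each gene in each mouse (points) by age, with the mean and SD (bars, n = 3) and axes that start at 0. The oldest mice lie below the youngest for Inha and Acvr1 and overlap them for the other 8 genes.

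As a list, 9 of the 10 genes had an estimate below 0 in the slope and in the direct comparison, where 49.0% and 49.1% of all genes tested did. Over the members, the median change between 3M and 18M was -0.16 on the log2 scale, beside 0.00 over 28158 genes. At an unadjusted p of 0.05, 2 members passed for the slope (Inha and Tgfbr3), 2 for 3M against 18M (Inha and Acvr1) and 0 for any age, beside 13.3%, 10.4% and 7.97% of all genes. Ranges of 3M and 18M were apart for 2 members, both lower at 18M, and for 0 in the other direction, where 9.49% of genes were wholly lower and 8.89% wholly higher at 18M. The genes were measured in the same libraries and were not counted as independent.

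**Figure D3:**
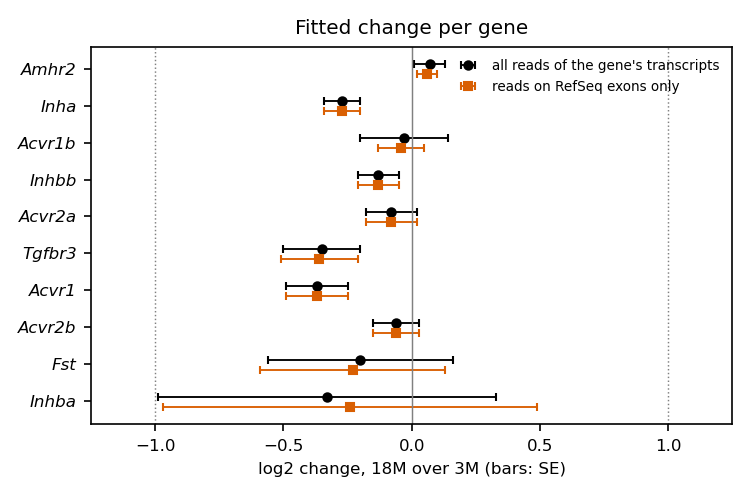
Estimated log2 change from 3M to 18M (left of 0 is lower at 18M) with its SE for each gene, from edgeR's fit on 6 libraries. Estimates lie between -0.37 for Acvr1 and 0.07 for Amhr2, and no gene was called.

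Reads on shared exons had been divided among overlapping transcripts by the assembler, and the transcripts were tested next. Of the 28 transcripts, 22 were deep enough to test for a slope and 19 for 3M against 18M, and edgeR called none of them. Over all transcripts, 0.0103% were called for the slope and 0.108% for 3M against 18M. DESeq2 called 1.72% and 2.03%, among them 1 member transcript for the slope (NM_001110205 of Acvr1) and 2 for 3M against 18M (the same and NM_007397 of Acvr2b). At an unadjusted p of 0.05, 3 member transcripts passed each test, beside 7.15% and 5.40% of all.

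The Acvr1 transcript that received most of the gene's counts was a different one in the 3M mice than in the 12M and 18M mice. NM_001110205 was given 154, 222 and 205 counts at 3M, 0, 119 and 0 at 6M, 0, 5 and 4 at 12M, and 0, 0 and 2 at 18M. NM_001110204 was given 42, 2 and 3 at 3M, 141, 51 and 39 at 6M, 208, 147 and 244 at 12M, and 184, 138 and 203 at 18M. The third form, NM_007394, was given 149 counts in 6M-3 and 0 elsewhere. For NM_001110205 the log2 change from 3M to 18M was -8.11 ± 1.06 (adjusted p = 0.169 with edgeR, and 7.90e-13 with DESeq2).

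The exons that separate these Acvr1 forms were nearly empty. The segment found only in NM_001110204 (chr2:58507277-58507521) had a depth of 0 in 10 of 12 libraries, with at most 1 read in a library. The segment that NM_001110204 shares with NM_007394 and that NM_001110205 lacks (chr2:58516024-58516300) had 0 to 8 reads. Its depth was 0.549, 0.729 and 0.704 at 3M and 1.12, 0 and 0.715 at 18M, so that the youngest and oldest mice overlapped. The last exon, common to all forms, had 60 to 161 reads. Whether the change of form reflects the RNA or the division of shared reads was not tested.

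The Acvr2b forms differed in a similar way. NM_007397, which holds the 72-nt segment printed above, was given 0, 2 and 9 counts at 3M, 208, 209 and 143 at 6M, 265, 0 and 172 at 12M, and 284, 428 and 60 at 18M. It took a mean of 0.659% of Acvr2b FPKM at 3M and 54.7% at 18M, from 9.64% in 18M-3 to 98.2% in 18M-2. All mice of 18M lay above all mice of 3M, but 12M-2 had 0. The log2 change was 6.12 ± 1.56 (adjusted p = 0.810 with edgeR, and 2.40e-04 with DESeq2). The segment itself had a depth of 0, 0.192 and 0.742 at 3M, 1.75, 1.73 and 1.2 at 6M, 1.12, 0 and 2.69 at 12M, and 3.63, 1.45 and 0.433 at 18M. The oldest mice overlapped the youngest there through 18M-3, and no library had more than 3 reads on it, beside a depth of 2.58 to 12.0 for the exon part that follows it. Summed over both forms, Acvr2b did not pass the tests, as given above.

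**Figure D4:**
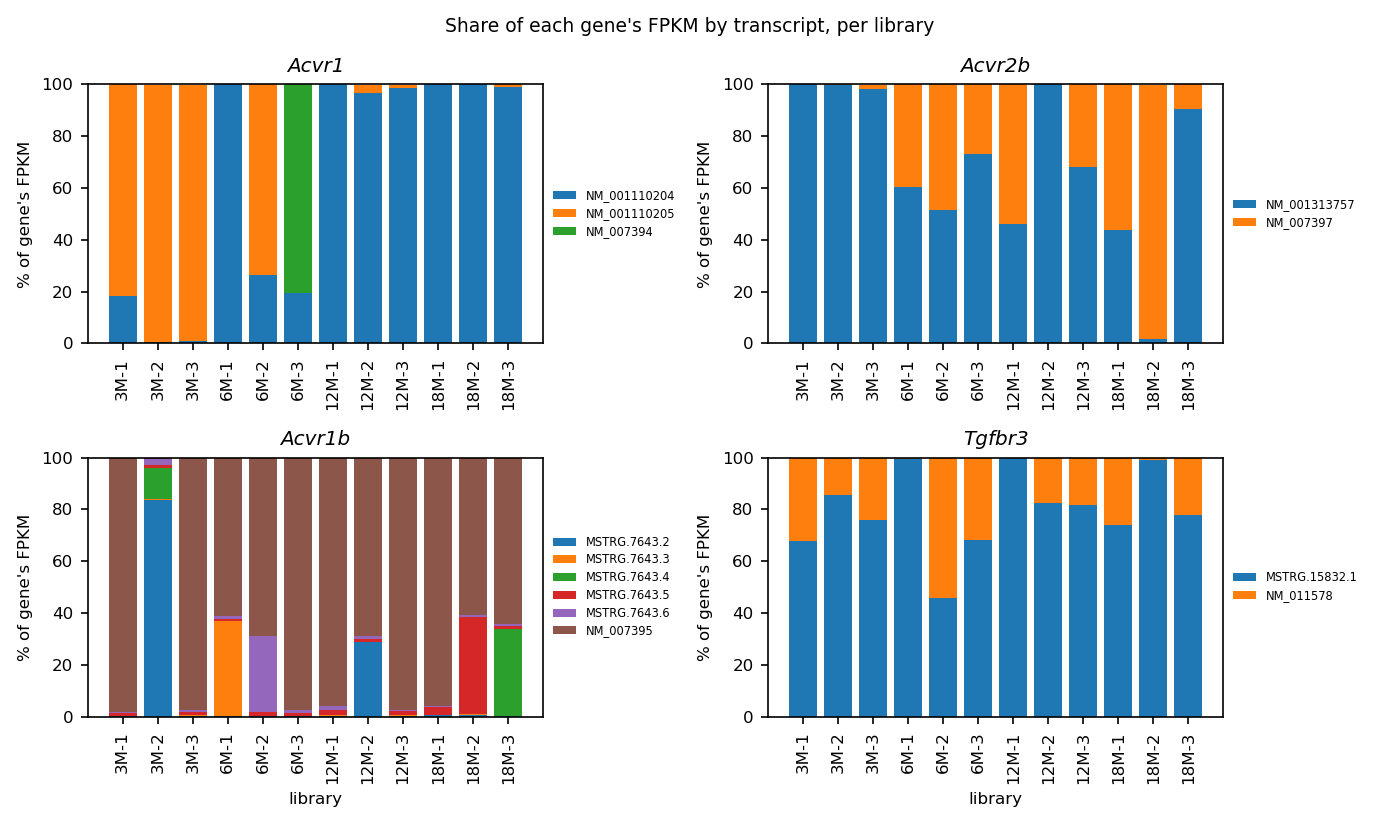
Share of each gene's FPKM (percent) that was assigned to each transcript in the 12 libraries, for 4 receptor genes. NM_001110205 holds most of Acvr1 at 3M and almost none at 18M, and NM_007397 of Acvr2b ranges from 0 to 98.2%.

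For Amhr2, gene-level and transcript-level values differed widely. Its own reference transcript, NM_144547 (1947 nt), was given 20.5, 0.0635 and 3.33 FPKM at 3M, 7.49, 54.9 and 1.93 at 6M, 2.44, 4.12 and 2.04 at 12M, and 2.15, 6.09 and 50.5 at 18M. It was high in 3M-1, 6M-2 and 18M-3, which belong to different ages. In most other libraries the reads were assigned to MSTRG.7675.3 (4689 nt) and MSTRG.7675.5 (4984 nt). Both start within the bounds of Sp1, the neighbouring gene on the same strand (chromosome 15, 102406143 to 102436404), and continue into Amhr2 (102445367 to 102454633). MSTRG.7675.2 (4329 nt) was given 2.52, 4.33 and 2.56 FPKM at 12M and 0 in all other libraries. Its 11-nt first exon (102405074 to 102405084) lies before the annotated start of Sp1, and it then runs through exons within the bounds of Sp1 into Amhr2. MSTRG.7675.6 (2372 nt), which starts between the genes, reached 9.10 FPKM in 3M-1.

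Because the longer models divide the same reads by a greater length, summed FPKM of Amhr2 was 46.4, 61.9 and 57.9 in 3M-1, 6M-2 and 18M-3 and 26.6 to 35.4 in the other 9. Reads summed over the exons of NM_144547 did not follow that split. They were 133, 129 and 131 reads per 1000000 counts at 3M, 127, 139 and 165 at 6M, 131, 134 and 125 at 12M, and 141, 137 and 133 at 18M. Exons outside NM_144547 held 3.24% to 11.9% of the reads assigned to Amhr2 transcripts. The exons of Amhr2 from 102445805 to 102454638 were covered 263 to 722 times. The first 37 nt of its first exon (102445367 to 102445403) did follow the split, with depths of 79.9, 141 and 161 in 3M-1, 6M-2 and 18M-3. Depth there was 59.3 in 18M-1 and 3.20 to 10.3 in the other libraries. The rest of the first exon (102445404 to 102445522) was covered 18.3 to 211 times. The stretch of 228 bases before the first exon, within the promoter printed above, was covered up to 52.1 times.

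**Figure D5:**
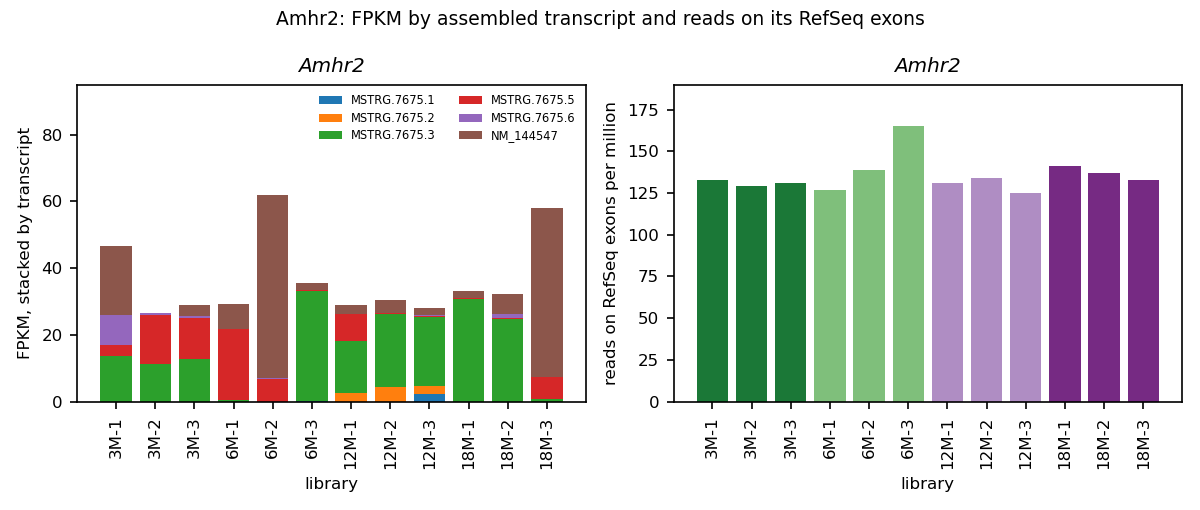
Amhr2 in each library on 2 scales, summed FPKM of its transcripts and reads on its own RefSeq exons. Summed FPKM is highest in 3M-1, 6M-2 and 18M-3, while exon reads are highest in 6M-3 with 165 reads per 1000000 counts.

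The other genes with several transcripts held like patterns in single libraries. For Acvr1b, NM_007395 took 60.8% to 98.2% of FPKM in 11 libraries but 0.701% in 3M-2, where MSTRG.7643.2 took 83.8%. Others peaked in different libraries: MSTRG.7643.3 took 36.5% in 6M-1, MSTRG.7643.6 took 29.7% in 6M-2 and MSTRG.7643.4 took 33.9% in 18M-3. All 5 assembled forms lengthen the 3′ end (101212602 to 101213637). MSTRG.7643.2 alone also holds an internal exon of 138 nt (101197525 to 101197662), which was covered 1.34 to 7.16 times. Exons outside the RefSeq form held 2.07% to 27.4% of Acvr1b reads. MSTRG.7643.5 had a slope of 0.239 ± 0.061 per month (adjusted p = 0.458, edgeR), with 510 counts in 18M-2 and 12 to 37 in the other libraries. Without 18M-2 the slope was 0.050. For Inha, MSTRG.456.1 was given 1792 counts in 3M-3 and 0 elsewhere, and starts with a 12-nt exon inside Obsl1, a gene on the opposite strand. NM_010564 took 94.0% to 95.6% of Inha FPKM in the other 11 libraries. For Tgfbr3, MSTRG.15832.1, whose first exon (chr5:107192178-107192816) is not in the RefSeq form, took 45.6% to 99.8% of FPKM, and the RefSeq form NM_011578 took 0.242% to 54.4%. For Fst, all counts went to NM_001301373 and NM_001301375, with each taking 100% in some libraries, and NM_008046 was given 0 in all 12. Acvr2a (NM_007396), Inhba (NM_008380) and Inhbb (NM_008381) had a single transcript each.

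The wider pathway was followed with 52 further genes of ligands, receptors, antagonists, signal transducers and upstream factors. Of these, 14 had a mean of normalized CPM under 1, and 43 could be tested for a slope. None was called, and 36 of the 43 had a slope below 0, beside 49.0% of all genes tested, with a median of -0.008 log2 per month. At an unadjusted p of 0.05, which 13.3% of all genes passed, 10 of the 43 passed. Of these, 9 slopes lay below 0 and 1, that of the germ cell factor Crem, lay above 0 (0.007 ± 0.002). The lowest adjusted p was that of Lhcgr, the luteinizing hormone receptor of Leydig cells, at 0.0936 for a slope of -0.096 ± 0.018 (edgeR). It averaged 2.80 normalized CPM in the 3M and 3.02 in the 6M mice, against 1.64 in the 12M and 1.15 in the 18M mice. Nr5a1, whose half-site is printed above, had a slope of -0.021 ± 0.007 (adjusted p = 0.270). Of 15 ligands, 2 had an unadjusted p under that limit, Tgfb2 and Amh, the ligand of Amhr2 (slope -0.315 ± 0.136, adjusted p = 0.354). Amh was at 1.12, 0.0176 and 1.1 normalized CPM at 3M, 1.67, 0 and 0.0176 at 6M, 0.593, 0 and 0.0158 at 12M, and 0.0177, 0.0189 and 0.0139 at 18M. Its values were above the 18M level in 4 libraries of the younger ages, and 3M overlapped 18M through 3M-2. In all other libraries Amh lay between 0 and 0.0189 normalized CPM, at or near a count of 0. Of the 9 receptors, 1 passed that unadjusted p, the BMP type II receptor Bmpr2 (-0.019 ± 0.006, adjusted p = 0.232, edgeR). Of the 7 antagonists and processing factors, 2 did, Fstl1 and the protease Furin. Of 13 signal transducers, 12 had a slope below 0 and 2 reached that p: Smad9, and the ubiquitin ligase Smurf2, with a slope of -0.015 ± 0.004 (adjusted p = 0.225). Smad2 and Smad3, which carry the activin signal, had slopes of -0.010 ± 0.006 and -0.007 ± 0.006. Inhbe and Grem1 had no counts in any library.

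Genes whose values ran most like those of a member over the 12 libraries were taken from 11676 genes with a mean of at least 5 normalized CPM, by Pearson's r of log2 values (1 added to the normalized counts). For Inha they were P3h1 (0.92), Col4a5 (0.91) and L3mbtl4 (0.91), and for Inhbb they were Vcl (0.91), Bcl2l13 (0.90) and Nploc4 (0.90). For Tgfbr3 they were Tmem127 (0.95), Cluh (0.95) and Zfp871 (0.94), and for Amhr2 they were Tmem19 (0.92), Mpv17 (0.87) and Tmem9b (0.87). These are the highest of many correlations over the same 12 libraries, which share depth and makeup, and they are given as a description.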

How the data were processed

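Total RNA of 12 testes was depleted of ribosomal RNA and made into unstranded TruSeq v2 libraries, sequenced in pairs. The authors mapped the reads to mm10 using HISAT2, and StringTie (1.3.3b) served to assemble, merge and re-estimate transcripts. The deposited table gives estimated counts and FPKM for 71967 transcripts, and the deposited transcript files give a depth of coverage per exon. The estimated counts are whole numbers derived from coverage and were used as they stand. Counts were summed per gene over the kept transcripts, and all other transcripts stayed in the table. Tests used edgeR 4.0.16 in R 4.3.3 (trimmed mean of M values, filter on low counts, quasi-likelihood test, Benjamini-Hochberg adjustment, threshold 0.05), with DESeq2 1.42.0 as an alternative, whose missing adjusted p-values stayed missing. Scripts were tested on simulated data. No per-sample column was left unused (0).

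All 10 genes were named, together with each one's highest transcript, those with 10% or more of a gene's FPKM at any age, those of at least 1 FPKM whose 3M and 18M means differed by 1.2 or more on the log2 scale (pseudocount 0.001), and those called in a test; NM_008046 and MSTRG.21580.1 were named after their values were seen. Members and lists were chosen with earlier results of these data known. Reads on RefSeq exons were computed from the depth per exon. Same-numbered mice of different ages did not deviate together, with 18 correlations of -0.04 to 0.05. Reads were not strand-specific, so reads of overlapping genes on opposite strands cannot be told apart. The limit of 3 reads for a count of 0 covers counting error only. The SEs come from the same fits as the p-values, which set a change against the spread between the mice.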

Additional observations from a re-analysis of the deposited data

Results flagged for a closer look

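A transcript outside the comparisons carried reads in every library. MSTRG.21580.1 bears the symbol Acvr2b but lies on the opposite strand (chromosome 9, 119441967 to 119444844, 365 nt) and overlaps the last exon of Acvr2b, so it was left out of the gene sum. It was given 35 to 63 counts a library, above the limit of 3 counts that a count of 0 allows. It averaged 1.97 ± 0.176 FPKM in the 3M mice and 2.47 ± 0.613 in the 6M mice (mean ± SD, n = 3 for each age). In the 12M mice it averaged 2.23 ± 0.234 and in the 18M mice 1.85 ± 0.229. The libraries do not record strand, and the share of these reads that belongs to Acvr2b was not tested. Groups of 3 mice were too small for a check of outlying values.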

How the results depend on the processing

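Of 88 alternatives to the 5 tests, 83 gave the same number of member calls, which was 0. The others used DESeq2 per transcript (1 for the slope and 2 for 3M against 18M) or an unadjusted p (2 genes for the slope, and 3 transcripts for each transcript test). Of the alternatives, 30 per gene and 18 per transcript only left out 1 library. Per gene, the main 3M against 18M estimates lay between -0.37 and 0.07, so the fold rule of 1 left little room for a call. Dropping that rule was tried with edgeR only, while DESeq2 gave Inha an adjusted p of 0.0134 for 3M against 18M. With the replicate number as a block, 0 members were called in every test, and calls over all genes moved from 23 to 16 for the slope, from 14 to 0 for 3M against 18M and from 17 to 8 for any age; the same numbers do not pair mice. DESeq2 called 830, 162 and 691 genes in these tests, and 1075 and 1263 transcripts against 6 and 59 with edgeR. The choice of reads on RefSeq exons was made after seeing the data, and called 0 members. Counting only transcripts equal to a reference called 10 genes for the slope and 28 for 3M against 18M. It turned the Acvr1b slope to 0.010 and its log2 change to 0.18, and turned the Inha change to 0.02. It moved the Tgfbr3 change to -0.77 and the Amhr2 change to 1.31, and in these 2 genes the leading transcript is then left out. With the block, MSTRG.7675.3 turned to -0.18. Leaving out a library in turn changed the sign of some small values or brought them to 0. Slopes then ran from -0.011 to 0.001 for Acvr1b, -0.003 to 0.004 for Amhr2, -0.383 to 0.350 for MSTRG.7643.2, -0.018 to 0.025 for NM_007395, -0.147 to 0.086 for NM_144547, -0.022 to 0.074 for NM_001301373 and -0.017 to 0.003 for NM_010564. Log2 changes ran from -0.60 to 0.00 for Fst, -0.79 to 0.18 for Inhba, -0.13 to 0.11 for Acvr1b, -0.16 to 0.01 for Acvr2a, -1.11 to 0.16 for MSTRG.7643.6, -0.40 to 0.66 for NM_007395, -0.95 to 3.52 for NM_144547, -0.14 to 0.94 for NM_001301373, -0.20 to 0.20 for NM_010564 and -0.80 to 0.17 for NM_008380. Of 963 single values under the alternatives, 923 kept their direction and side of the threshold. Other causes were not tested. Depth limits Inhba, Fst and the exons that separate the Acvr1 and Acvr2b forms.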
